A study of Mus musculus with 18 samples.

Results

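The genes that build cholesterol and fatty acids from acetyl-CoA were followed through every library of an RNA-sequencing series on mouse retinal explants. The set had 30 named genes, taken by gene symbol from the 34385 genes of a knockdown table and the 34396 genes of an overexpression table, and all 30 were found in both. By role, 7 genes lead from acetyl-CoA through mevalonate to farnesyl diphosphate, here called the mevalonate steps. A further 11 make squalene and carry it to cholesterol, here called squalene to cholesterol. The SREBP control system and sterol transport hold 6 genes, and fatty acid synthesis holds 6. For testing, 29 of the 30 were kept in each table. The exception, Scd1, a stearoyl-CoA desaturase of fat-storing tissue, stayed between 0.0531 and 1.19 ppm in all 18 libraries.

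Cholesterol is made in a chain that runs from acetyl-CoA through mevalonate, farnesyl diphosphate, squalene and lanosterol. The SREBP transcription factors, encoded by Srebf1 and Srebf2, switch on the genes of this chain and of fatty acid synthesis when sterols in the endoplasmic reticulum are low: SCAP escorts them to the Golgi for cleavage, and the INSIG proteins hold SCAP back when sterols are plentiful. The retina both makes cholesterol locally and takes it up from blood lipoproteins, and developing neurons and Müller glia need it for membranes. NMNAT1, in the nucleus, and NMNAT2, in the cytoplasm and axons, catalyse the last step of NAD+ synthesis.

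Newborn retinas (postnatal day 0.5) of ICR mice, an outbred stock, had been electroporated with a plasmid and kept as explants on a filter for 3 days, and the cells that took up a co-delivered EGFP plasmid had been sorted. All groups therefore consist of electroporated, sorted cells, and the labels name no genetic change of the animals. The knockdown table held a scramble control, an Nmnat1 knockdown and an Nmnat2 knockdown group, each made with a short hairpin RNA plasmid. The overexpression table held an empty vector control, an Nmnat1 overexpression and an Nmnat2 overexpression group. Each of the 6 groups had 3 libraries, which are given here under their column headings (C, N1 and N2 with a number for knockdown, v, N1 and N2 with a number for overexpression, so that N2_2 of one table is not N2_2 of the other). The sources used here do not give the hairpin sequences, the promoters of the plasmids or whether retinas were pooled. Separate cultures or litters are not stated for the libraries of a group, and every p-value therefore measures a spread between libraries that may be technical. The title of 1 sample in each Nmnat2 group names Nmnat3, whereas its other labels name Nmnat2, which was followed.

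Levels are given in ppm, parts per 1000000 of the column sum of the deposited length-scaled signal, so that genes of different length can be compared within a table. For 1 kb of effective length, 1 ppm stood for about 11.2 to 21.1 reads. Effective length is transcript length less a fitted fragment length of 220 to 320 bases. These reads were inferred from the steps between low values of genes with 1 annotated transcript. Nmnat1 was at 7.37 to 8.54 ppm in its knockdown against 17.0 to 20.9 ppm in scramble, and Nmnat2, scarce throughout, was at 0.503 to 1.27 ppm in its knockdown against 0.624 to 6.22 ppm, so that these groups overlapped. The overexpressed genes stood at 14797 to 27832 ppm (Nmnat1) and 20911 to 22818 ppm (Nmnat2). The Nmnat2 knockdown library N2_2 stood apart: on the first principal component of all genes (24.4% of the variance) it lay at 128.7 and the other 8 knockdown libraries between -31.2 and -5.83, and 6.51% of its signal was mitochondrial against 2.29% to 4.67% in the others. In the overexpression table the 3 libraries numbered 1 lay on one side of the other 6 (from -91.4 to -24.5 against 4.14 to 50.0 on a component with 35.5% of the variance). They were no close cluster: N2_1 was furthest out at -91.4, N1_1 was at -33.9 and v1, at -24.5, was nearest to the others. They are counted below among the libraries that stand apart. Libraries also differed in Eif2s3y, a Y-linked gene, at 26.0 to 36.1 ppm in scramble, 62.9 to 79.3 ppm in the Nmnat1 and 84.1 to 108 ppm in the Nmnat2 knockdown. In the overexpression table it was at 15.9 to 39.7 ppm in the libraries numbered 1 and 43.1 to 132 ppm in the others. The part of sex composition in the results was not tested. Results that rest on these libraries are given with and without them.

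The promoters of 3 members on which the results turn are printed for the letters that the SREBP system is known to work with. RefSeq promoter sequences (GRCm38.p6) of 300 bases, from 250 before to 50 after a transcript start, were matched by symbol for 24 of the 30 members (32 promoters); Fdft1, Fdps, Scd1, Scd2, Sqle and Stard4 had no entry. The core of the classical sterol regulatory element, TCACNCCAC, was in 1 of the 32 promoters (3.12%), that of Hmgcs1, against 1.24% of all 32851 promoters. The CCAAT box, bound by NF-Y, was in 21 of 32 (65.6% against 37.4% of all), and the GC box GGGCGG, bound by Sp1, was in 24 of 32 (75.0% against 35.7%). Both strands were searched, the motifs do not overlap in letters, and a match is a description of the sequence only. Capitals mark these 3 motifs on either strand. Insig1 lies at chr5:28071162-28071461, Hmgcs1 at chr13:119690101-119690400 and Mvk at chr5:114444019-114444318, all on the plus strand.
Insig1: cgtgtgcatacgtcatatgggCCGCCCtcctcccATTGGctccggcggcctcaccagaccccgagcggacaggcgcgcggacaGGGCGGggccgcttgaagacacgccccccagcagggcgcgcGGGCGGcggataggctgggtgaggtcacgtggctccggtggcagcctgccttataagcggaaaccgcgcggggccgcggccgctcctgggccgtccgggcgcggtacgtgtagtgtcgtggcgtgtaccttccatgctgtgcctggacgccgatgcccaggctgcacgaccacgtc
Hmgcs1: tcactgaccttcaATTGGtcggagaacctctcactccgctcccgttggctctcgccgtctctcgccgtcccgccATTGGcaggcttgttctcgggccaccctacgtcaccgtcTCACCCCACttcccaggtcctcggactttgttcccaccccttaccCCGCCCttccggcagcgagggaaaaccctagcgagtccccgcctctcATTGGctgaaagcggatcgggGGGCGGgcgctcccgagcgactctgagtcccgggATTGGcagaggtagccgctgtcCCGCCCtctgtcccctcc
Mvk: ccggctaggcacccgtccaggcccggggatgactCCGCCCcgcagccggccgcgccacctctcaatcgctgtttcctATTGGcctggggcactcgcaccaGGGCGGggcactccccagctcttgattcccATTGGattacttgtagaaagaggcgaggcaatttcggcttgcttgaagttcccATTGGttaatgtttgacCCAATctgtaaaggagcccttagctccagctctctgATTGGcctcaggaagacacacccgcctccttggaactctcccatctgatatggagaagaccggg
The Hmgcs1 promoter holds 1 sterol element core, 4 CCAAT boxes and 3 GC boxes, the Mvk promoter 5 CCAAT boxes and 2 GC boxes, and the Insig1 promoter 1 CCAAT box and 3 GC boxes.

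In both control groups the most abundant members were Acly, Scd2 and Srebf1. In scramble libraries Acly, which makes cytosolic acetyl-CoA from citrate, led with 225.7 ± 26.4 ppm (SD, n = 3), followed by Scd2, the desaturase of brain and retina, with 189.5 ± 13.6 ppm and Srebf1 with 176 ± 6.34 ppm. These 3 did not separate clearly: the lowest Acly library (201 ppm) was close to the highest Scd2 library (199 ppm), and the Scd2 and Srebf1 libraries overlapped (174 to 199 ppm and 172 to 183 ppm). In empty vector libraries the same order held with no overlap, at 331 ± 6.91 ppm, 248 ± 4.25 ppm and 214 ± 2.36 ppm. Fdps, which makes farnesyl diphosphate, Mvk, the mevalonate kinase, Fasn, the fatty acid synthase, and Scap followed in both tables. At the other end, after Scd1, came Stard4, a cytosolic sterol carrier (6.66 ± 3.22 ppm in scramble, 5.26 ± 2.13 ppm in empty vector), Elovl6, an elongase of long-chain fatty acids, Hsd17b7, a 3-ketosteroid reductase, and Sc5d, a sterol desaturase, each at 6.82 to 11.95 ppm on average. Levels of the 2 tables were scaled apart and are not tested against each other.

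Reads of some members cannot be assigned with certainty. In GENCODE M21 (GRCm38), 11 of the 30 members share exon bases with another annotated gene, and the chemistry does not mark the strand. The largest shares were in Fdps (26.7% of its exon bases, with Gm43738 on the same strand), Fdft1 (18.3%, with Ctsb on the opposite strand), Scap (13.2%), Hmgcs1 (12.1%) and Tm7sf2 (12.1%, with Vps51). Acat2 has a near copy, Acat3, with which reads may be shared. Mvk (chr5:114444269-114460591), Insig1 (chr5:28071363-28078662), Acly (chr11:100476353-100528000), Msmo1 (chr8:64718139-64733792), Mvd (chr8:122433601-122443422) and Srebf2 (chr15:82147181-82205379) share none, apart from any copy elsewhere in the genome.

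**Figure D1:**
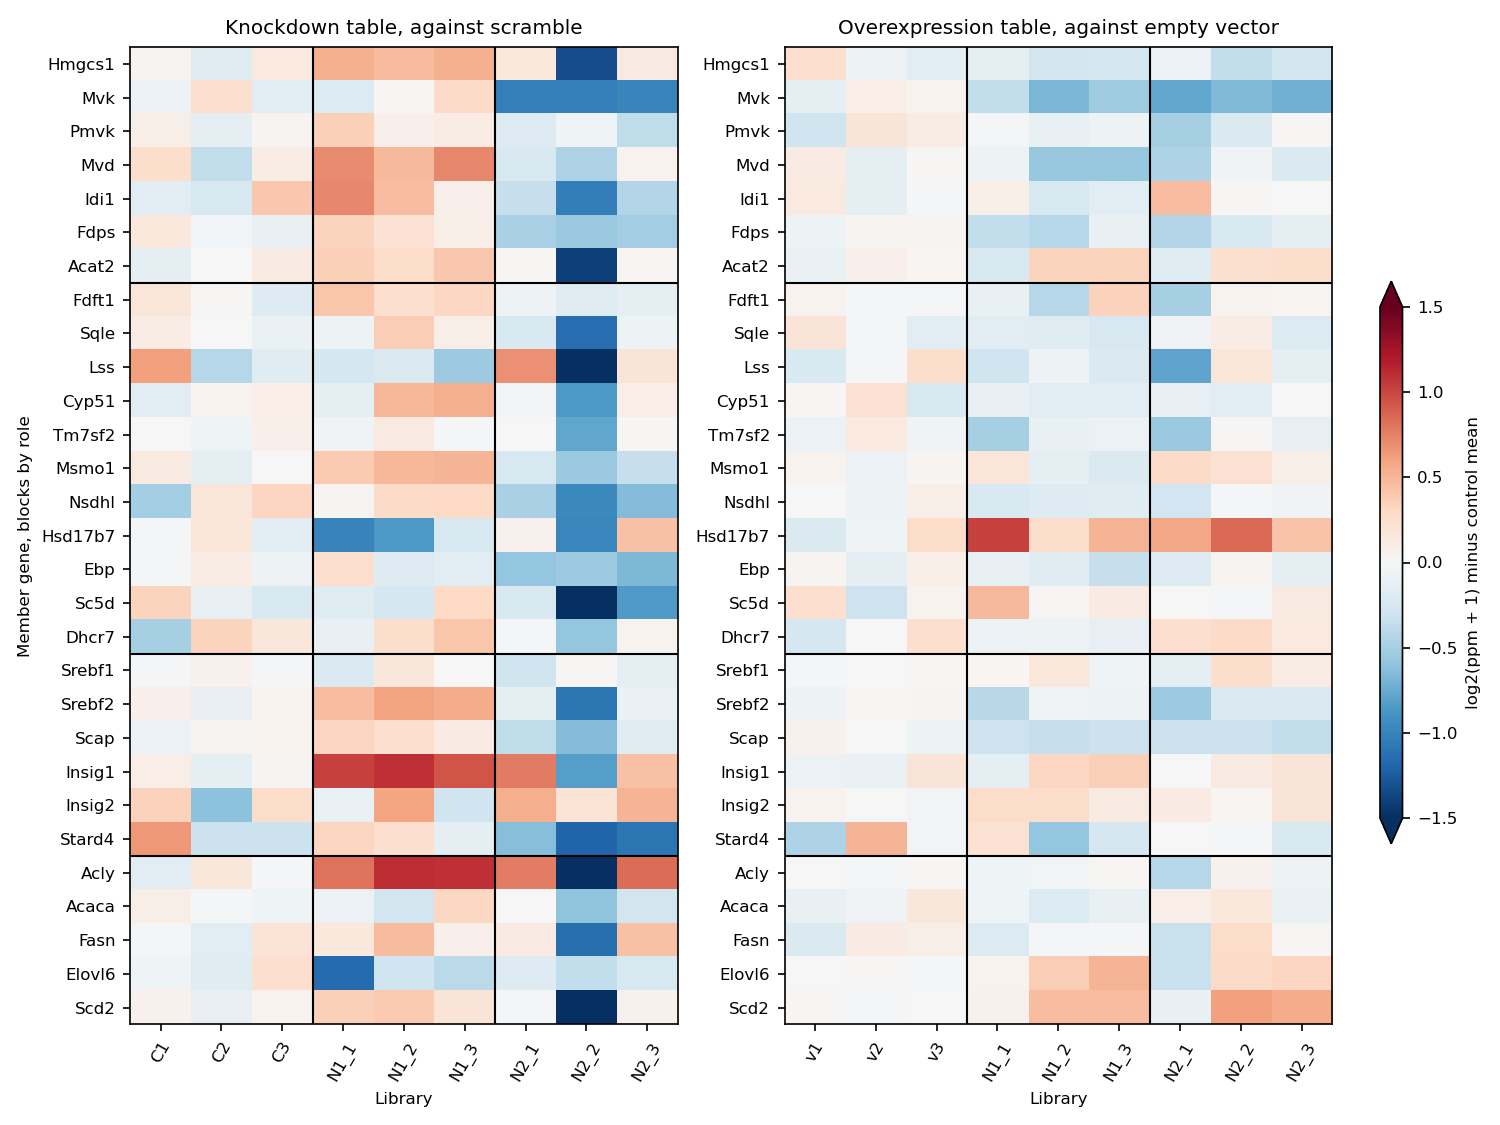
Level of the 29 tested members in every library as log2(ppm + 1) minus the mean of the control group of the same table (left, knockdown table against scramble; right, overexpression table against empty vector); red is above and blue below the control mean, colours saturate at ±1.5, and horizontal lines separate the 4 roles in the order mevalonate steps, squalene to cholesterol, SREBP system, fatty acid synthesis. The Nmnat1 knockdown columns are mostly red, N2_2 is the darkest blue column, and Mvk is blue in all 3 libraries of both overexpression groups and of the Nmnat2 knockdown.

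With Nmnat1 knockdown, Insig1 and Acly stood at about 2.08 and 2.02 times their scramble means, and most steps of the pathway lay above scramble by less, but no member passed the test when all 9 libraries of the table shared 1 estimate of the spread. The test was limma on log2(ppm + 1) with Benjamini-Hochberg adjustment over all 22233 genes kept and a threshold of 0.05, and it called 0.144% of all genes. Of the 29 members 22 had a positive and 7 a negative difference, with a median of 0.21 on the log2 scale against -0.0034 over all genes. At an unadjusted p under 0.05 there were 3 members (Insig1, Mvd and Msmo1) beside 10.5% of all genes. Another pseudocount, no filter on low values and median-of-ratios scaling also gave 0 members.

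Insig1, whose protein retains SCAP in the endoplasmic reticulum, was at 22.8, 19.2 and 21.9 ppm in C1 to C3 and at 44.3, 46.6 and 41.9 ppm in N1_1 to N1_3. All 3 knockdown libraries were above all 3 scramble libraries, and the difference was 1.02 ± 0.36 on the log2(ppm + 1) scale (SE; adjusted p = 0.342). N2_2, which is in neither of these groups, enters through the shared spread: without it the same difference had an SE of 0.14 and passed (adjusted p = 0.00269). In that fit 5 members were called higher and none lower, where 8.43% of all genes were called, 4.82% higher and 3.60% lower: Insig1, Acly, Srebf2, Msmo1 and Hmgcs1. The fit on these 2 groups alone called 3 of them (Insig1, Acly and Srebf2) beside 4.36% of all genes.

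Of the mevalonate steps, all 7 had a positive difference (median 0.35), and their summed level was 545 to 578 ppm in the knockdown against 455 to 473 ppm in scramble. Mvd, which makes isopentenyl diphosphate, was at 38.4, 24.4 and 34.5 ppm in scramble and at 52.7, 45.2 and 53.2 ppm in the knockdown. The groups did not overlap, and the difference of 0.64 ± 0.23 did not pass (adjusted p = 0.370, and 0.0536 without N2_2). Hmgcs1, the HMG-CoA synthase at the head of the chain, whose promoter holds the sterol element core, was at 47.3, 40.5 and 51.2 ppm against 67.3, 64.6 and 67.4 ppm in the knockdown. Its libraries were also separate, with a difference of 0.52 ± 0.35 (adjusted p = 0.648) that passed without N2_2 (adjusted p = 0.0228). Mvk showed no such separation: its knockdown libraries (81.2 to 114 ppm) covered nearly the same range as scramble (84.0 to 111 ppm), and the difference was 0.04 ± 0.19.

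The 11 genes from squalene to cholesterol were mixed, with 7 positive and 4 negative differences and a median of 0.12. Msmo1, a methylsterol oxidase that demethylates lanosterol derivatives, was at 48.9, 40.1 and 44.5 ppm in scramble and at 58.4, 63.2 and 63.6 ppm in the knockdown. All knockdown libraries were higher, by 0.47 ± 0.18 (adjusted p = 0.415, and 0.0365 without N2_2). Hsd17b7 went the other way, with 8.62 to 11.2 ppm in scramble and 4.37 to 8.11 ppm in the knockdown, separate groups whose difference of -0.70 ± 0.40 did not pass (adjusted p = 0.578). Fdft1, the squalene synthase, was separate and higher (0.33 ± 0.20), and the other 8 overlapped with scramble.

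In the SREBP system, Srebf2, the sterol-responsive factor itself, was at 55.5, 48.2 and 54.5 ppm in scramble and at 73.1, 80.8 and 77.9 ppm in the Nmnat1 knockdown. The 3 knockdown libraries were all above scramble, by 0.54 ± 0.26 (adjusted p = 0.504, and 0.0118 without N2_2). Srebf1, which drives mainly fatty acid genes, differed by -0.02 ± 0.16, and its knockdown libraries (151 to 197 ppm) spanned those of scramble (172 to 183 ppm). Scap was separate and higher by 0.23 ± 0.18, and Insig2 and Stard4 overlapped.

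Among the fatty acid genes, Acly was at 201, 254 and 223 ppm in scramble and at 397, 485 and 483 ppm in the Nmnat1 knockdown. Every knockdown library was above every scramble library, but in the 9-library fit the SE was wide (1.01 ± 0.60, adjusted p = 0.592), and without N2_2 it was 0.10 (adjusted p = 0.000574). Elovl6 was lower in each knockdown library, at 3.74, 7.61 and 6.997 ppm against 9.08, 8.35 and 11.6 ppm, by -0.62 ± 0.32 (adjusted p = 0.537, and 0.236 without N2_2). The enzymes between them did not follow Acly: Acaca, the acetyl-CoA carboxylase, was at 20.1 ppm on average in both groups, and Fasn libraries overlapped (93.7 to 125 ppm against 78.8 to 103 ppm). Scd2 was separate and higher, at 242, 249 and 217 ppm against 199, 174 and 196 ppm, and did not pass (adjusted p = 0.823, and 0.0533 without N2_2). Over the whole set, 12 members did not overlap between the groups, 10 of them higher and 2 lower (Elovl6 and Hsd17b7), beside 24.8% of all genes, 12.8% being higher.

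**Figure D2:**
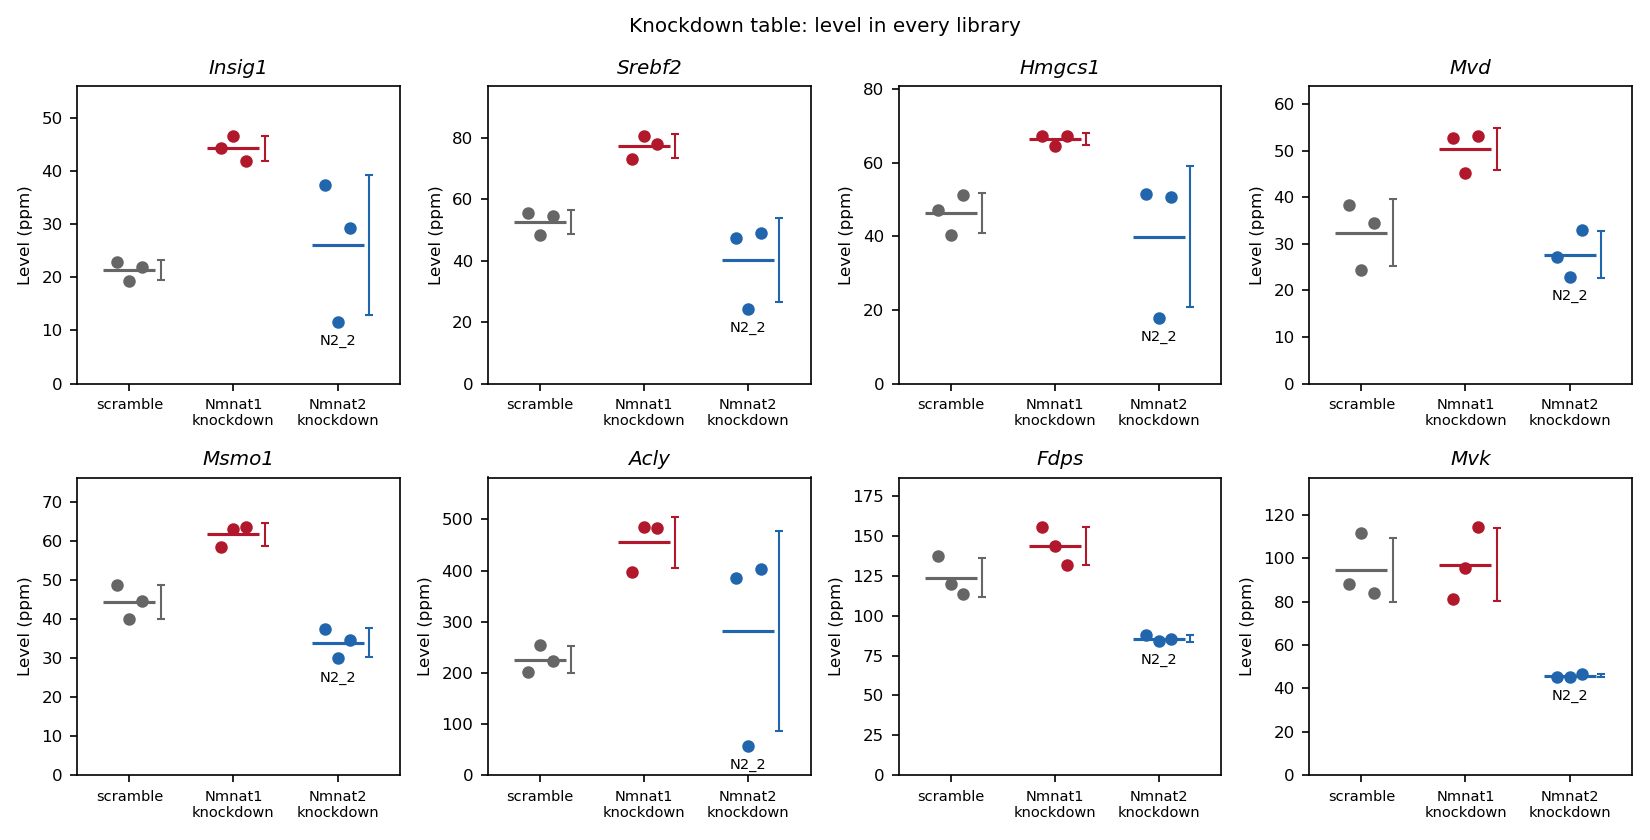
Level in ppm of 8 members in each library of the knockdown table; points are libraries, horizontal lines the group means and vertical bars 1 SD around the mean (n = 3), with the library N2_2 named. In Insig1, Srebf2, Hmgcs1 and Acly the Nmnat1 knockdown is above scramble and N2_2 lies far below the other Nmnat2 knockdown libraries, whereas in Fdps and Mvk the 3 Nmnat2 knockdown libraries lie together below scramble.

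Markers of cell types also differed between these groups. The summed level of 10 Müller glia markers, all found, was 701 to 750 ppm in the Nmnat1 knockdown against 1048 to 1130 ppm in scramble, and that of 10 progenitor markers 190.0 to 209.6 ppm against 437 to 456 ppm. Rod markers (8 of 8 found) were at 5802 to 5829 ppm against 5314 to 5538 ppm, and no marker of these lists was at 0 in every library, Aqp4 being at 0 in at least 1. Amacrine sums were lower too (201 to 237 ppm against 290.0 to 299.5 ppm). So were astrocyte (8.60 to 12.2 against 24.8 to 29.1 ppm) and endothelial sums (33.7 to 38.8 against 55.1 to 65.7 ppm). Microglia (19.0 to 22.0 against 9.45 to 12.1 ppm) and retinal pigment epithelium sums (68.0 to 78.1 against 42.9 to 53.1 ppm) were higher. Cone and bipolar sums overlapped with scramble. Some astrocyte, microglia and pigment epithelium markers were at 0 in at least 1 library. In bulk RNA of sorted cells, fewer cells of a type and less RNA per cell cannot be told apart. The part of cell composition in the differences of the lipid genes was not tested.

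With Nmnat2 knockdown, Mvk, Fdps and Ebp lay below every scramble library in all 3 knockdown libraries, whereas Insig1 and Acly were high in 2 of the 3 libraries and low in N2_2. In the 9-library fit 0 of 29 members passed, beside 0.436% of all genes, and 7 were under an unadjusted p of 0.05 (Mvk, Fdps, Ebp, Stard4, Nsdhl, Scap and Sc5d) beside 16.8% of all genes. The other pseudocount, no filter, median-of-ratios scaling and the fit on 2 groups also gave 0. The difference was negative for 27 members and positive for 2, with a median of -0.35. The median of all genes in this comparison was itself -0.23, so that the sign count says little, and with median-of-ratios scaling the medians were -0.11 for members and -0.04 for all genes. This comparison shares its scramble libraries with the one above.

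Mvk was at 45.4, 45.4 and 46.5 ppm in N2_1 to N2_3, against 87.9, 111 and 84.0 ppm in scramble. The 3 Nmnat2 knockdown libraries were nearly equal, N2_2 included, and all below scramble; the difference was -1.02 ± 0.19 (adjusted p = 0.0554, which missed the threshold). It was -0.78 with median-of-ratios scaling (adjusted p = 0.105) and -1.01 ± 0.16 without N2_2 (adjusted p = 0.00304). Fdps was at 138, 120.0 and 114 ppm in scramble and at 87.7, 83.9 and 85.6 ppm in the knockdown. These libraries were separate too, with a difference of -0.52 ± 0.16 (adjusted p = 0.147, and 0.0143 without N2_2).

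Between squalene and cholesterol, Ebp, the sterol isomerase, was at 47.9, 52.9 and 46.4 ppm in scramble and at 32.3, 33.2 and 30.2 ppm in the Nmnat2 knockdown. All 3 knockdown libraries were lower, by -0.60 ± 0.20 (adjusted p = 0.169, and 0.0262 without N2_2). Nsdhl, a sterol dehydrogenase, was at 15.2, 25.1 and 27.9 ppm in scramble and at 15.4, 10.8 and 13.6 ppm in the knockdown, so that C1 lay within the knockdown range (-0.70 ± 0.28, adjusted p = 0.235). Lss, the lanosterol synthase, showed how far N2_2 could depart: it was at 33.6 and 23.4 ppm in N2_1 and N2_3 and at 3.36 ppm in N2_2, with 14.9 to 31.8 ppm in scramble.

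Of the control genes, Stard4 was low in every Nmnat2 knockdown library, at 3.65, 2.15 and 2.39 ppm against 10.4, 4.81 and 4.80 ppm. The groups were separate, but scramble was uneven, and -0.98 ± 0.37 did not pass (adjusted p = 0.222, and 0.162 without N2_2). Insig1 was at 37.3 and 29.3 ppm in N2_1 and N2_3 and at 11.5 ppm in N2_2, that is above and below all scramble libraries (19.2 to 22.8 ppm). Its difference was 0.13 ± 0.36 with all libraries (adjusted p = 0.892) and 0.61 ± 0.16 without N2_2 (adjusted p = 0.0280). Acly behaved alike: 385 and 403 ppm in N2_1 and N2_3, 56.3 ppm in N2_2, and 201 to 254 ppm in scramble. The difference was -0.12 ± 0.60 with all libraries (adjusted p = 0.947) and 0.81 ± 0.12 without N2_2 (adjusted p = 0.00178), so that the direction turned.

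Without N2_2, then, 5 members passed, Insig1 and Acly higher and Mvk, Fdps and Ebp lower, beside 15.5% of all genes (7.99% higher and 7.51% lower). In that fit 12 differences were positive and 17 negative. In N2_2 itself, 26 of the 29 members lay below both N2_1 and N2_3, where 51.9% of all genes did, and the summed level of the 30 members was 941 ppm against 1712 and 1766 ppm in those 2 libraries and 1695 to 1737 ppm in scramble. With all libraries, 9 members were lower without overlap and none higher, beside 17.2% of all genes lower and 4.73% higher (21.9% in all).

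**Figure D3:**
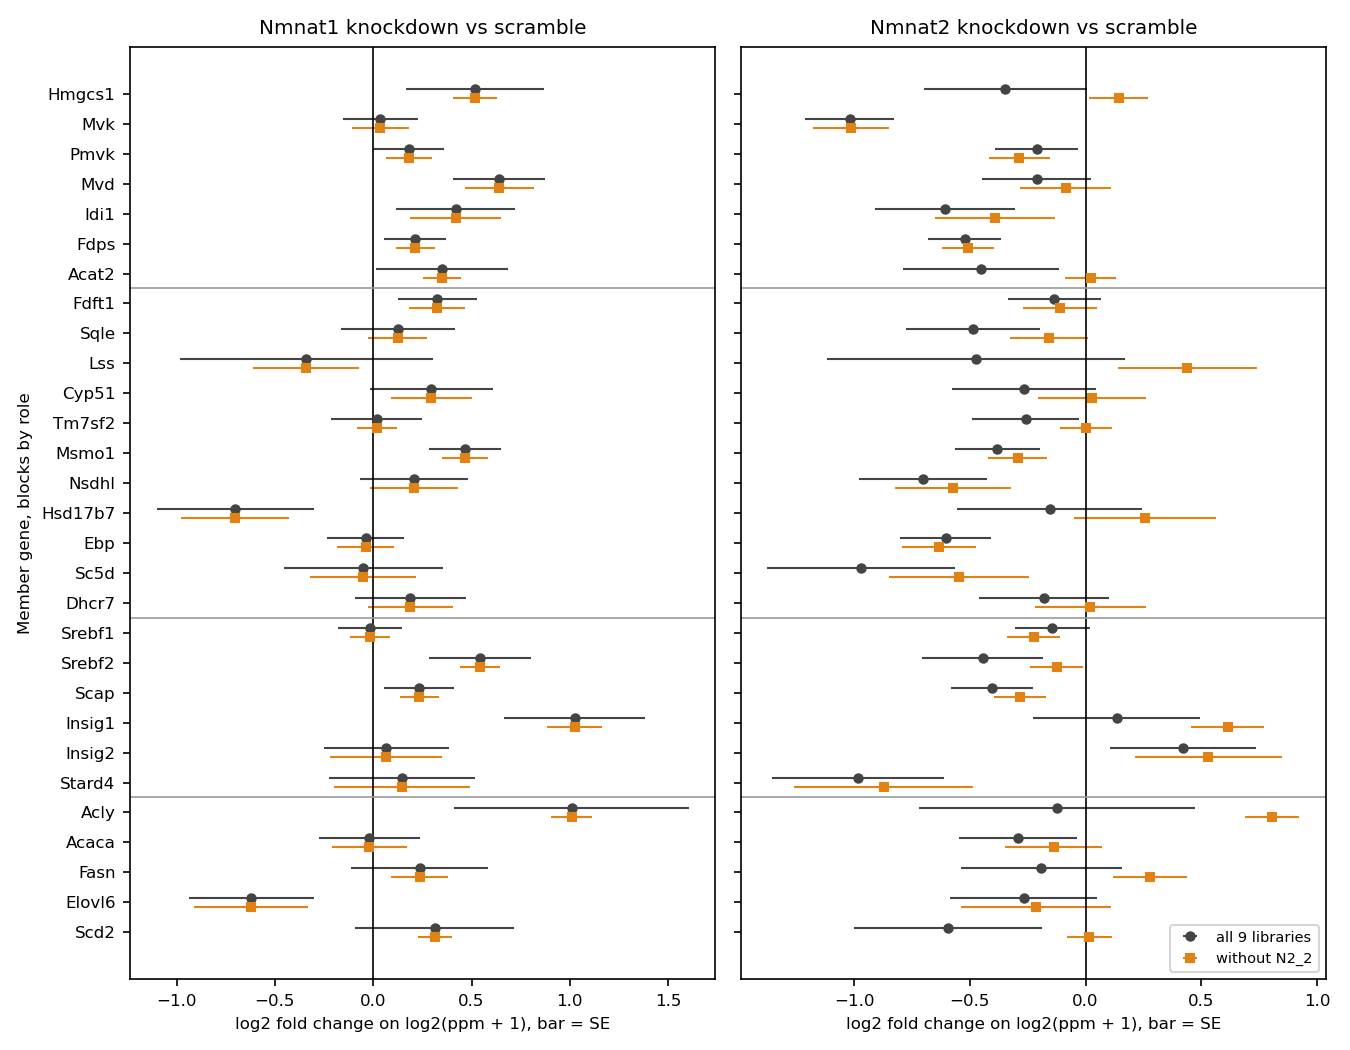
Differences of the 29 tested members on the log2(ppm + 1) scale for Nmnat1 knockdown (left) and Nmnat2 knockdown (right) against scramble, with all 9 libraries (dark circles) and without N2_2 (orange squares); bars are the SE from limma, and grey lines separate the 4 roles. Leaving out N2_2 narrows the bars on the left without moving the points; on the right it moves many points, Acly from -0.12 to 0.81, and leaves Mvk at about -1.0.

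Markers moved with this group as well, and N2_2 differed from its 2 fellow libraries in them. The 8 rod markers, none at 0 in any library, summed to 1671 and 1677 ppm in N2_1 and N2_3 and to 4154 ppm in N2_2, against 5314 to 5538 ppm in scramble. The 8 amacrine markers summed to 685, 313 and 707 ppm in N2_1, N2_2 and N2_3 against 290.0 to 299.5 ppm, and the 10 progenitor markers to 607, 225 and 604 ppm against 437 to 456 ppm. The 6 cone markers summed to 853, 4119 and 804 ppm against 2240 to 2734 ppm. Other lists were low in all 3 libraries: the 8 bipolar markers summed to 1710, 1674 and 1712 ppm against 2273 to 2364 ppm. Grm6 and Vsx1 stayed under 1 ppm in every knockdown-table library, so that this sum rests on the other markers of the list. The 6 markers of retinal pigment epithelium summed to 24.2, 28.3 and 18.5 ppm against 42.9 to 53.1 ppm, and Best1, Mlana and Slc45a2 were at 0 in at least 1 knockdown-table library. The 10 Müller glia markers summed to 1373, 649 and 1358 ppm against 1048 to 1130 ppm. The part of cell composition in the differences of Mvk and the other members was not tested.

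Between the 2 knockdowns, which share no library with each other, 3 members were higher with Nmnat1 than with Nmnat2 knockdown in the 9-library fit, beside 2.06% of all genes called (1.34% in that direction). They were Mvk, with 97.1 ± 16.7 ppm against 45.8 ± 0.635 ppm (1.05 ± 0.19, adjusted p = 0.0232), Fdps, with 144 ± 11.96 ppm against 85.7 ± 1.90 ppm (0.74 ± 0.16, adjusted p = 0.0439), and Msmo1, with 61.7 ± 2.90 ppm against 34.0 ± 3.83 ppm (0.85 ± 0.18, adjusted p = 0.0459). In each, all 3 libraries of one group were above all 3 of the other. The calls did not hold in every setting: none was made with median-of-ratios scaling (adjusted p = 0.0551, 0.175 and 0.0827) or in the fit on 2 groups, and leaving out 1 library gave 0 members without N1_1, N1_2, N1_3, N2_1 or N2_3, 1 (Mvk) without C1, C2 or C3, and 8 without N2_2. At an unadjusted p under 0.05 there were 16 members beside 16.4% of all genes.

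Of the 29 members 26 were on the side of the Nmnat1 knockdown, with a median of 0.64, where the median of all genes was 0.25. With median-of-ratios scaling these medians were 0.40 and 0.06. All 7 mevalonate genes were separate and higher with Nmnat1 knockdown, as were 5 of the 11 genes from squalene to cholesterol, 4 of the 6 of the SREBP system and 1 of 5 tested fatty acid genes, in all 17 of 29 beside 19.0% of all genes in that direction and 25.4% in either. The 3 members on the other side were Hsd17b7, Insig2 and Elovl6, none past the threshold. Without N2_2, 8 members passed, all higher with Nmnat1 knockdown (Mvk, Fdps, Mvd, Pmvk, Msmo1, Ebp, Srebf2 and Scap), beside 13.5% of all genes called, 6.52% higher and 7.02% lower. Acly and Insig1 were not among them: their differences fell from 1.13 and 0.89 to 0.20 and 0.41, and those 2 genes were high in N2_1 and N2_3 too.

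With Nmnat2 overexpression, Mvk fell: it was the one member past the threshold in either comparison of the overexpression table against empty vector. It was at 67.2, 79.8 and 77.6 ppm in v1 to v3 and at 43.0, 46.8 and 45.1 ppm in N2_1 to N2_3. All 3 overexpression libraries were lower, by -0.72 ± 0.12 (adjusted p = 0.0359), where limma called 0.550% of all 20725 genes kept (0.347% lower). The call held with the other pseudocount and with median-of-ratios scaling (adjusted p = 0.0485), and was lost with no filter and in the fit on 2 groups. It was also lost when v1, v2, v3, N1_2, N1_3, N2_2 or N2_3 was left out (adjusted p = 0.0579 to 0.223). Adjusted p ranged from 0.00249 to 0.223 over the 15 alternatives, 6 of which kept the call, and the difference from -0.80 to -0.67.

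Mvk was low with Nmnat1 overexpression too, at 57.6, 46.2 and 51.2 ppm, again below every empty vector library. The difference of -0.53 ± 0.12 did not pass with all libraries (adjusted p = 0.129) and did without the libraries numbered 1 (-0.68 ± 0.09, adjusted p = 0.00342). The 2 overexpression groups did not differ detectably in Mvk (0.19 ± 0.12, adjusted p = 0.953). Both comparisons share their empty vector libraries, so that a low value in both is not independent evidence.

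With Nmnat1 overexpression 0 of 29 members passed, beside 0.121% of all genes, and 5 were under an unadjusted p of 0.05 (Mvk, Scap, Fdps, Hsd17b7 and Mvd) beside 9.57% of all genes. No filter, the other pseudocount, median-of-ratios scaling and the 2-group fit gave 0 as well. Scap, the SREBP escort, was at 115, 110.0 and 105 ppm with empty vector and at 88.3, 86.2 and 87.6 ppm with Nmnat1 overexpression, and was at 87.5, 87.6 and 84.7 ppm with Nmnat2 overexpression. All 6 overexpression libraries lay below the 3 controls, by -0.33 ± 0.09 and -0.34 ± 0.09 (adjusted p = 0.208 and 0.149, and 0.0344 and 0.0361 without the libraries numbered 1).

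Fdps was at 98.8, 107 and 107 ppm with empty vector, at 80.8, 77.5 and 96.7 ppm with Nmnat1 overexpression and at 76.8, 88.5 and 95.0 ppm with Nmnat2 overexpression. It too was below every control library in both groups, by -0.30 ± 0.12 and -0.27 ± 0.12, short of the threshold (adjusted p = 0.444 and 0.480). Hsd17b7 was at 5.65, 6.43 and 8.39 ppm in controls, at 14.8, 8.31 and 10.1 ppm with Nmnat1 overexpression and at 10.6, 13.0 and 9.42 ppm with Nmnat2 overexpression. It was higher without overlap with Nmnat2 overexpression alone, v3 and N1_2 being nearly equal, and the differences of 0.60 ± 0.25 and 0.62 ± 0.25 did not pass (adjusted p = 0.468 and 0.417).

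Srebf2 was at 59.0, 63.7 and 64.3 ppm with empty vector and at 42.5, 53.5 and 53.5 ppm with Nmnat2 overexpression, lower in each library by -0.32 ± 0.14 (adjusted p = 0.448). Mvd was at 33.2, 27.6 and 30.7 ppm in controls and at 28.7, 20.1 and 20.1 ppm with Nmnat1 overexpression, where N1_1 lay within the control range (-0.41 ± 0.18, adjusted p = 0.498, and 0.0349 without the libraries numbered 1). The 2 genes furthest from scramble in the Nmnat1 knockdown overlapped with the controls here. Insig1 was at 24.9 to 30.7 ppm in controls, 24.4 to 34.7 ppm with Nmnat1 and 26.6 to 30.7 ppm with Nmnat2 overexpression, and Acly at 324 to 337 ppm, 318 to 336 ppm and 245 to 346 ppm. Without the libraries numbered 1, Insig1 differed by 0.29 ± 0.13 and 0.12 ± 0.13 (adjusted p = 0.191 and 0.661), and Acly stayed at adjusted p = 0.963 and 0.991.

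Of the 29 members, 21 had a negative difference with Nmnat1 and 17 with Nmnat2 overexpression, with medians of -0.11 and -0.09 where all genes had -0.04 and 0.06. Without the libraries numbered 1 these medians were -0.14 and -0.0017 where all genes had -0.03 and 0.03, and 15 members were negative with Nmnat2 overexpression. Without overlap were 8 with Nmnat1 overexpression (3 higher and 5 lower, beside 17.8% of all genes, 7.74% higher and 10.1% lower) and 6 with Nmnat2 overexpression (2 higher and 4 lower, beside 16.3%, 8.60% higher and 7.73% lower). At an unadjusted p under 0.05 there were 5 with Nmnat2 overexpression (Mvk, Scap, Hsd17b7, Srebf2 and Fdps), beside 10.3% of all genes.

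The libraries numbered 1 changed which members passed. Scd2 was at 251, 243 and 249 ppm with empty vector and at 342 and 341 ppm in N1_2 and N1_3 and 379 and 364 ppm in N2_2 and N2_3, but at 260.1 and 229.5 ppm in N1_1 and N2_1. With all libraries the differences were 0.33 ± 0.18 and 0.35 ± 0.18 (adjusted p = 0.638 and 0.568), and without number 1 they were 0.47 ± 0.05 and 0.59 ± 0.05 (adjusted p = 0.00152 and 0.000672). In that fit the members called were Scd2 and Acat2 higher and Mvk, Scap and Mvd lower with Nmnat1 overexpression, beside 11.1% of all genes (6.21% higher and 4.94% lower). With Nmnat2 overexpression they were Scd2 higher and Mvk and Scap lower, beside 8.18% (4.65% higher and 3.53% lower). Acat2, the cytosolic acetoacetyl-CoA thiolase, was at 65.4 to 73.9 ppm in controls, at 88.7 and 88.6 ppm in N1_2 and N1_3 and at 59.6 ppm in N1_1. That fit leaves 2 libraries a group.

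Between the 2 overexpression groups no member passed and the set was nearly level. The test called 0.0193% of all genes, 1 member was under an unadjusted p of 0.05 (Dhcr7, beside 4.46% of all genes), and the median difference was -0.02. Dhcr7, the reductase of the last step to cholesterol, was at 40.4, 40.8 and 39.4 ppm with Nmnat1 and at 51.6, 53.0 and 47.8 ppm with Nmnat2 overexpression, the only member of the 29 without overlap, beside 8.34% of all genes (-0.33 ± 0.14, adjusted p = 0.953). No alternative setting gave a member past the threshold, the fit without the libraries numbered 1 included, which called 0.291% of all genes.

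**Figure D4:**
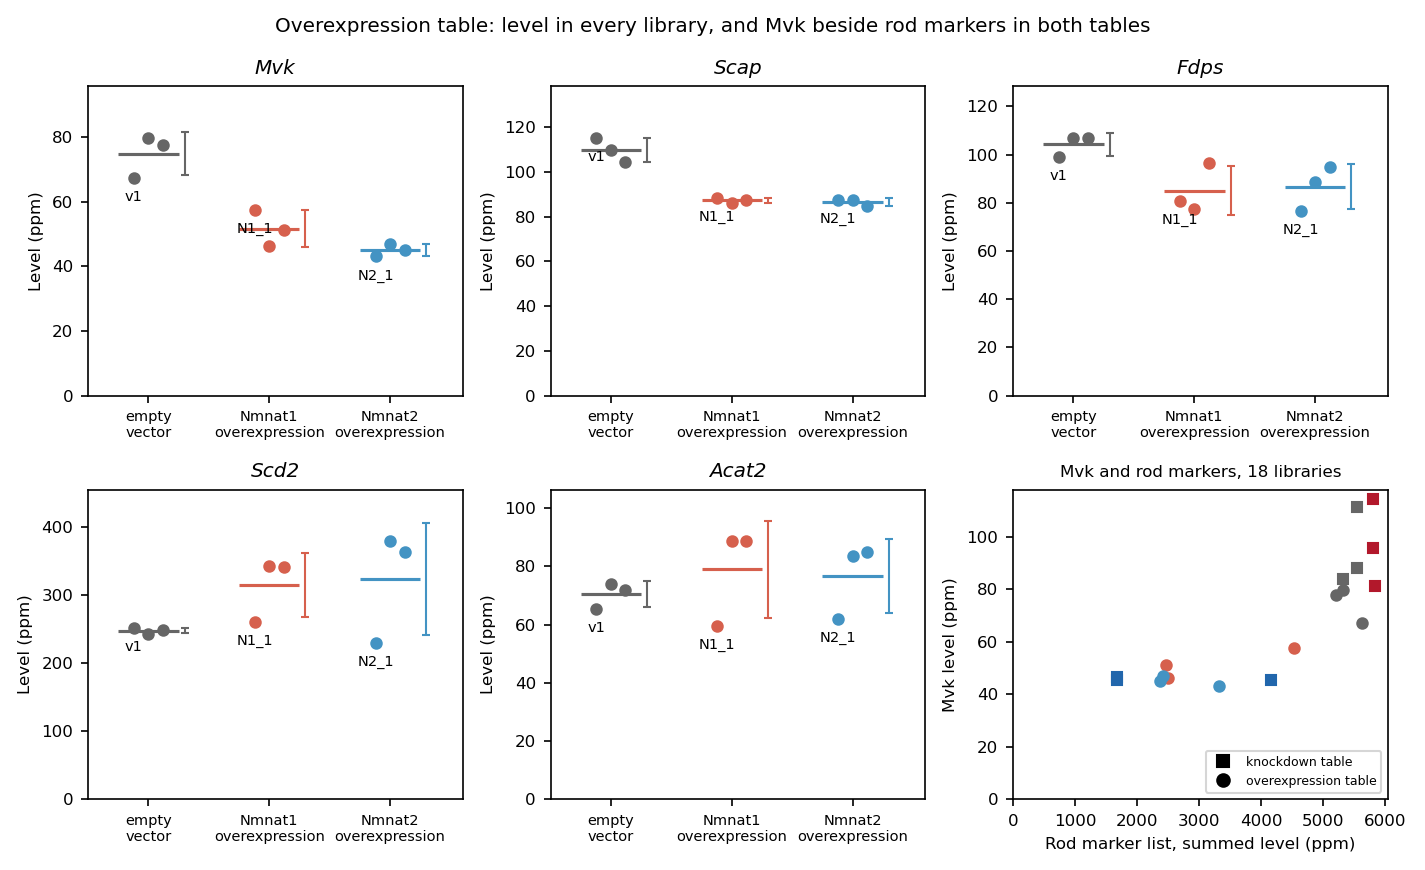
Level in ppm of 5 members in each library of the overexpression table, with points for libraries, lines for group means and bars of 1 SD (n = 3), the libraries numbered 1 being named; the last panel plots Mvk against the summed level of the 8 rod markers in all 18 libraries (squares, knockdown table; circles, overexpression table; grey, controls; red shades, Nmnat1; blue shades, Nmnat2). Mvk and Scap lie below the controls in both overexpression groups. Scd2 and Acat2 are higher in the overexpression libraries numbered 2 and 3 than in those numbered 1. The 9 libraries with Mvk at 43.0 to 57.6 ppm have rod sums of 1671 to 4526 ppm. They are all libraries of the Nmnat2 knockdown and of both overexpression groups. The other 9 have rod sums of at least 5210 ppm. Sums of the bipolar markers, which are not plotted, separate the same libraries.

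Rod markers summed to less in the overexpression groups as well, at 2465 to 4526 ppm with Nmnat1 and 2375 to 3321 ppm with Nmnat2 overexpression against 5210 to 5619 ppm with empty vector. Müller glia markers, with none at 0 in any library, were at 1822 and 1795 ppm in N1_2 and N1_3 and 1810 and 1768 ppm in N2_2 and N2_3, against 1325 to 1343 ppm with empty vector, and at 1353 and 1031 ppm in N1_1 and N2_1. Over the 18 libraries the 9 with the lowest Mvk were also the 9 with the lowest rod sums, libraries of one table sharing their processing and the 2 tables being scaled apart. These 9 are all libraries of the Nmnat2 knockdown and of the 2 overexpression groups, so the match is between whole groups. Bipolar sums split the 18 libraries in the same way, at 1674 to 2233 ppm in these 9 and at least 2273 ppm in the others. The match is therefore not particular to rod markers. Within the Nmnat2 knockdown, rod sums were 1671, 4154 and 1677 ppm in N2_1, N2_2 and N2_3, whereas Mvk stayed at 45.4 to 46.5 ppm. Bipolar sums in these libraries were 1710, 1674 and 1712 ppm. Bipolar markers were at 2031 to 2233 ppm with Nmnat1 and 1976 to 2173 ppm with Nmnat2 overexpression against 2435 to 2637 ppm, and amacrine markers at 308 to 449 ppm and 255 to 405 ppm against 228 to 246 ppm. Of the bipolar markers, Grm6 stayed under 1 ppm in every overexpression-table library. Astrocyte sums were at 35.8 to 36.2 ppm with Nmnat1 and 24.4 to 47.2 ppm with Nmnat2 overexpression, against 19.5 to 23.5 ppm. Cone sums were at 1081 to 1660 ppm and 1013 to 1130 ppm against 1397 to 1682 ppm. Microglia and pigment epithelium sums overlapped with empty vector. The part of these cell types in the Mvk, Scap, Scd2 and Acat2 values was not tested.

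Genes next to the pathway gave few calls with all libraries in the fit and more without those that stand apart. Of 54 listed genes of further fatty acid synthesis and elongation, SREBP processing, other mevalonate branches, and sterol export, storage and oxidation, 52 were kept in the knockdown and 51 in the overexpression table. None passed with Nmnat1 knockdown or Nmnat1 overexpression, where 7 (beside 10.5% of all genes) and 14 (beside 9.57%) were under an unadjusted p of 0.05. With Nmnat2 knockdown and Nmnat2 overexpression 1 each passed, and 8 (beside 16.8%) and 12 (beside 10.3%) were under an unadjusted p of 0.05. Both times it was Scarb1, the receptor for high-density lipoprotein, which fell: 55.9 ± 6.94 ppm against 122 ± 9.18 ppm in scramble (-1.12 ± 0.16, adjusted p = 0.0277), and 84.8 ± 6.10 ppm against 133 ± 1.42 ppm with empty vector (-0.64 ± 0.10, adjusted p = 0.0258). These calls held in 4 of 13 and 8 of 15 alternatives.

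Scarb1 was also 1 of 2 listed genes called between the knockdowns, with 169 ± 2.83 ppm in the Nmnat1 knockdown (1.59 ± 0.16, adjusted p = 0.00175), a call that all 13 alternatives kept. The other was Abcg4, a sterol exporter of neural tissue, with 68.9 ± 5.41 ppm with Nmnat1 against 24.0 ± 9.97 ppm with Nmnat2 knockdown (1.57 ± 0.31, adjusted p = 0.0297). Abcg4 was at 32.5 ± 3.78 ppm in scramble. With all libraries the remaining listed genes did not pass in any of the 6 comparisons, with medians from -0.27 to 0.29 over the list. Without N2_2, 6 listed genes were called higher and 4 lower with Nmnat1 knockdown (beside 8.43% of all genes), 5 and 6 with Nmnat2 knockdown (beside 15.5%), and 9 and 6 between the knockdowns (beside 13.5%). Without the libraries numbered 1, 5 were called higher and 9 lower with Nmnat1 overexpression (beside 11.1%), and 6 and 7 with Nmnat2 overexpression (beside 8.18%).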

How the data were processed

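RNA of 18 samples in 6 groups of 3 was measured by RNA sequencing, from 1 ng of RNA with SMART-Seq v4 and Nextera libraries, per the labels' protocols. The submitters' processing notes list Salmon 0.11.3, sleuth 0.30.0 and GRCm38.p6 and give them no role. The values deposited by the authors form a signal scaled for length and called TPM, although a column does not sum to 1000000; each column was rescaled to ppm of its sum. Genes that reached 1 ppm in 3 or more libraries of their table were tested on log2(ppm + 1), a scale that understates changes of low genes, with limma 3.58.1 (R 4.3.3; mean-variance trend, 2-sided, the 3 groups of a table in 1 fit, Benjamini-Hochberg adjustment over all genes kept, threshold 0.05). The scripts were checked on simulated data. The sources hold no library totals in reads, and no test of a gene used them. Reads inferred from the steps between low values served to compare libraries of a group with the sampling of reads. With 3 libraries against 3, an exact permutation test of one gene cannot go below 0.1 and was not used.

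The members, the lists of related and marker genes and the tests were chosen with earlier results of these data known. Given in full are the members past the threshold and, against a control, the 5 with the smallest p; related genes are named where past the threshold. Members that passed only without the libraries that stand apart, and the others named with values, were chosen after their values were seen. The alternatives were a pseudocount of 0.1 ppm, no filter, median-of-ratios scaling, a fit on 2 groups, leaving out libraries and a replicate block. Knockdown columns show the group but not the sample. The replicate numbers in the labels of the 2 overexpression groups were taken to pair these groups, since deviations from the group means correlated by 0.461, 0.285 and 0.139 for numbers 1 to 3. The values given above come from the limma fit without this block. The block was fitted on all libraries of the overexpression table, empty vector included, and changed no call of a member. No fit held the block for the 2 overexpression groups alone, so the effect of that pairing by itself was not tested. Between the 2 overexpression groups it left 1 member under an unadjusted p of 0.05, beside 8.75% of all genes.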

Additional observations from a re-analysis of the deposited data

How the results depend on the processing

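The numbers of members past the threshold moved with the libraries used and with the setting. For Nmnat1 knockdown against scramble there were 3 in the fit on 2 groups and 0 to 5 when libraries were left out, 5 without N2_2; for Nmnat2 knockdown 0 to 5, again 5 without N2_2. Between the knockdowns there was 1 with no filter, 0 with median-of-ratios scaling and in the fit on 2 groups, and 0 to 8 when libraries were left out. Without the libraries numbered 1 there were 5 with Nmnat1 and 3 with Nmnat2 overexpression; the latter had 0 with no filter and in the fit on 2 groups, and 0 to 2 when single libraries were left out. Leaving out single libraries gave 0 with Nmnat1 overexpression and between the overexpression groups. The Mvk call with Nmnat2 overexpression was lost without v1, v2, v3, N1_2, N1_3, N2_2 or N2_3.

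All genes called for Nmnat1 knockdown were 32, and 17 with a pseudocount of 0.1 ppm, 14 with no filter, 969 in the fit on 2 groups and 0 to 1826 when libraries were left out. For Nmnat2 knockdown they were 97, and 32 with no filter, 0 in the fit on 2 groups and 0 to 3359 when libraries were left out; 17 were higher and 80 lower, but 66 and 33 with median-of-ratios scaling. Between the knockdowns they were 458, and 108 in the fit on 2 groups and 83 to 2933 when libraries were left out. Of the 458, 299 were higher and 159 lower, but with median-of-ratios scaling 203 were higher and 398 lower. For Nmnat1 overexpression they were 25, and 16 with no filter, 9 with median-of-ratios scaling, 1951 without the libraries numbered 1 and 3 to 271 when single libraries were left out. For Nmnat2 overexpression they were 114, and 48, 71, 1431 and 3 to 321 in the same settings. Between the overexpression groups they were 4, and 2 in the fit on 2 groups, 51 without the libraries numbered 1 and 2 to 9 when single libraries were left out. The causes were not tested; a fit without N2_2 or without number 1 has fewer samples.

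The replicate block gave 187 genes and 0 members with Nmnat1 overexpression, 269 genes and 1 member (Mvk) with Nmnat2 overexpression and 4 genes and 0 members between them. Same-numbered libraries of empty vector and an overexpression group correlated in their deviations from group means by 0.027 to 0.217, and 2 of these 6 pairs, those of v3, were under 0.1, so the numbers were not taken to pair those samples; 5 of the 9 libraries correlated best with their own number in both other groups, a hint from the data and not the design. No paired analysis was possible in the knockdown table because its columns could be matched to groups but not to samples, so that the numbers in their names belong to no labelled sample.

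In Nmnat2 knockdown Insig1 turned to -0.19 without N2_1 and -0.02 without N2_3, and Acly to 0.12 with median-of-ratios scaling and 0.81 without N2_2; leaving out single libraries gave -0.19 to 0.61 for Insig1 and -0.60 to 0.81 for Acly. For the single genes given in full, 445 alternatives kept direction and side of the threshold, 25 gained and 61 lost it, and these 4 reversed. Libraries of a group differed by more than sampling of the inferred reads gives. The median chi-square was 1.61 to 17.2 over genes with 1 transcript, against 0.455. As far as the inferred reads are right, the spread between libraries was thus wider than counting error alone.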
